A study of Mus musculus with 18 samples.

Results

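Glutamate receptors and their auxiliary subunits were followed in nuclei of the embryonic mouse forebrain, as 37 genes taken by symbol from the 55335 genes of the deposited matrices. They are 4 AMPA receptor subunits (Gria1 to Gria4), 7 NMDA receptor subunits (Grin genes), 5 kainate receptor subunits (Grik genes), 1 delta receptor subunit (Grid1) and the metabotropic receptors, with 1 of group I (Grm5), 2 of group II (Grm2 and Grm3) and 4 of group III (Grm4, Grm6, Grm7 and Grm8). The auxiliary subunits are 6 TARPs (Cacng genes), 3 members of the Shisa family, 2 Neto proteins and 2 cornichons (Cnih2 and Cnih3). Forebrains were collected at E14 from untreated embryos of the MYT1L S710fsX line, which carries a frameshift in Myt1l on a C57BL/6 background, in every cell and from conception. The allele was absent (wild type, WT), on one chromosome (heterozygous, Het) or on both (homozygous, KO), with 3 animals per genotype, and each animal gave a library in each of 2 runs (18 libraries). For run 1, the genotype tag reads WT in all libraries whereas the titles name 3 genotypes, and groups were taken from the titles. The question was how these genes are distributed over excitatory and inhibitory neurons and whether their RNA differed between genotypes.

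Glutamate released by one neuron is sensed by the next through receptor channels that open on binding it (AMPA, NMDA and kainate receptors) and through metabotropic receptors that signal by G proteins. Grin1 is the obligatory subunit of NMDA receptors, in which Grin2 subunits bind glutamate and Grin3 subunits bind glycine. TARPs, Shisa proteins and cornichons accompany AMPA receptors to the membrane and shape their currents, and Neto proteins do so for kainate receptors. In the embryonic forebrain these receptors are made before most synapses form, and glutamate acts there on migrating neurons and their growing processes.

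Counts of unique molecular identifiers (UMIs) were summed over the nuclei of a group in each animal, and levels are given as counts per 1e+06 UMIs of that sum (CPM). Of 261143 barcodes, 194626 were kept as single nuclei, 14801 to 26065 per animal with 42858361 to 74124057 UMIs. Clusters were built without the 37 genes and named by markers, giving 47419 excitatory neuron-like nuclei in 6 clusters and 53282 inhibitory neuron-like nuclei in 9 clusters. In WT animals, 9 excitatory markers summed to 2466 to 2661 CPM in the first class and to 412 to 431 CPM in the second. These markers are among those that named the clusters, so the difference is built in and is no check of the names. Of the nuclei, 34230 stayed unnamed, among them cluster 2 (11714 nuclei led by Tfap2d), which is described separately. The 18 libraries shared 311 barcodes between runs of an animal and 3429 between animals, and cluster 31, which was diencephalic neuron-like, came almost wholly from 1 Het animal (99.9% of its nuclei) and was not tested. Xist stood at 307 CPM in WT animal 3 and below 0.86 CPM in the other 8 animals. Y-linked genes summed to 7.34 CPM in WT animal 3 and to 465 to 548 CPM in the other 8. By these RNAs WT animal 3 was the only female, so sex was not balanced between the genotypes. The part of sex in the results was not tested beyond leaving out each animal in turn. Myt1l RNA in excitatory neuron-like nuclei was 1893, 2180 and 2051 CPM in WT, 2130, 2423 and 2285 CPM in Het and 2404, 2711 and 2410 CPM in KO. Every KO value lay above every WT value (log2 change 0.32, SE 0.086, adjusted p = 0.102), so the RNA of the mutated gene was not lower in KO animals, and its level does not check the genotype labels of a frameshift allele.

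For 3 of the genes whose RNA differed between KO and WT animals, RefSeq gives a promoter window of 300 bases (250 before the start to 50 after it, GRCm38.p6), and these are shown because MYT1L is a DNA-binding factor whose family recognises the core AAGTT. Capitals mark AAGTT on either strand (AACTT when read on the printed strand). Grin1 is on the minus strand at chr2:25319138-25319437, Grm3 on the minus strand at chr5:9725303-9725602 and Gria4 on the minus strand at chr9:4796185-4796484.
Grin1 promoter: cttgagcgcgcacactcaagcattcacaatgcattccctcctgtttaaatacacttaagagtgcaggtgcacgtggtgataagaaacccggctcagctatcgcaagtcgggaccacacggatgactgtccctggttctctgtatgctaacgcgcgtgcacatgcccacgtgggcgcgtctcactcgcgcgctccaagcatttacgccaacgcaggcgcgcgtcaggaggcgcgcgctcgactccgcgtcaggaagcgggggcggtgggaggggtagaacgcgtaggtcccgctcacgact
Grm3 promoter: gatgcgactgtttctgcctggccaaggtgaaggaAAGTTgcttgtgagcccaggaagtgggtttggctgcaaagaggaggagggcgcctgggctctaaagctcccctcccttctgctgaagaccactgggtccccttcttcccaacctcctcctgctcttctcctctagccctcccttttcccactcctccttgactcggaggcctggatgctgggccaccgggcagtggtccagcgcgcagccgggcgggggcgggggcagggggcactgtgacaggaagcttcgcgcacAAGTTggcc
Gria4 promoter: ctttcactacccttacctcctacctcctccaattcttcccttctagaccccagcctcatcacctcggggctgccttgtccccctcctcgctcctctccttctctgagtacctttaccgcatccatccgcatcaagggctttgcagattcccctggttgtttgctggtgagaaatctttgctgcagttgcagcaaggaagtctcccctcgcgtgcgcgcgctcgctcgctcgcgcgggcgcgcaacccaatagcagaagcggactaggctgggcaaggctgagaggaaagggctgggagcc
The Grm3 window held 2 matches, and the Grin1 and Gria4 windows held 0. Over the 24 members with a promoter in that table, 8 of 29 windows (27.6%) held the core, against 39.3% of the 32851 windows of all genes, and no binding was measured in these samples. The genes themselves span chr2:25291181-25319187 (Grin1), chr5:9485541-9725170 (Grm3) and chr9:4417896-4796234 (Gria4), and 30 of the 37 genes overlap another annotated gene. The Grm3 window lies wholly upstream of its gene span, so its RefSeq start is outside the annotated gene used here. The Grin1 and Gria4 windows reach into theirs. Grin1 overlaps the antisense gene Grin1os, and reads of the pair cannot be told apart where counting ignores strand, and no source used here gives the strand setting.

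Most of the family was already transcribed at E14. In WT animals, 29 of 37 genes reached 10 CPM in excitatory neuron-like nuclei and 31 of 37 did so in inhibitory neuron-like nuclei. Grin2c, Grin3b and Grm6, a receptor of retinal bipolar cells, gave only 54, 51 and 22 UMIs over all excitatory neuron-like nuclei and were too low to test.

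The AMPA subunits were divided between the classes. Gria2, which makes the channel impermeable to calcium, was at 2996 ± 121 CPM (SD, n = 3) in excitatory and 1173 ± 99.6 CPM in inhibitory neuron-like nuclei of WT animals, and was highest in cluster 23, the migrating excitatory-like nuclei (4192 ± 215 CPM). Gria1 and Gria4 had the opposite distribution, at 372 ± 18.5 and 298 ± 24 CPM in excitatory against 1385 ± 98.4 and 1703 ± 32.8 CPM in inhibitory neuron-like nuclei. Both were highest in cluster 0, which was medial ganglionic eminence interneuron-like, at 3708 ± 251 CPM for Gria1 and 4962 ± 63.7 CPM for Gria4, apart from every other cluster. Gria4 was lowest in cluster 23, at 73.3 ± 7.52 CPM. Gria3 was highest in the deep-layer excitatory-like cluster 22 (821 ± 76.7 CPM) and lowest in cluster 8, which was caudal ganglionic eminence interneuron-like (26.4 ± 2.30 CPM).

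The NMDA subunits differed in which clusters held the most of their RNA. Grin3a stood at 468 ± 123 CPM in cluster 27 (excitatory neuron-like, led by Il1rapl2, Unc13c and Nr4a2) and at 161 ± 3.91 CPM in cluster 1 (led by Sim1 and Tll1), while the other 4 excitatory clusters held 3.90 to 5.80 CPM. Clusters 27 and 1 were named excitatory on only 4 and 3 of 9 markers, none of them among the genes that led each cluster. Grin2b, the main partner of Grin1 before birth, was at 1616 ± 112 CPM in cluster 27 and 1603 ± 120 CPM in cluster 22, levels that overlapped, and at 95.6 ± 2.24 CPM in cluster 23. Grin1 ranged from 82.4 ± 10.5 CPM in cluster 12 (inhibitory neuron-like, led by Sst, Calb1 and Sntg2) to 11.2 ± 2.15 CPM in cluster 23, and its 3 highest clusters (12, 27 and 1) overlapped. Grin2d was highest in cluster 8 (63.4 ± 17.4 CPM), and Grin2a in cluster 27 (97.9 ± 19.4 CPM).

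Among kainate subunits, Grik2 led in cluster 1 (5198 ± 76.2 CPM) and was lowest in cluster 21 (306 ± 15.5 CPM; led by Ldb2 and Btbd11), both excitatory. Grik1 was highest in interneuron-like cluster 0 (1145 ± 44.4 CPM) and was 8.41 ± 3.86 CPM in cluster 21. Grik5, a subunit that needs a partner to form a channel, was nearly even, from 214 ± 10.1 CPM in cluster 12 to 152 ± 20.6 CPM in cluster 27, with neighbours overlapping throughout the order. Grik3 was highest in cluster 10 (1007 ± 93.8 CPM), overlapping clusters 22 and 8, and Grik4 in cluster 5 (129 ± 12.9 CPM). Grid1 was highest in cluster 25, one of the direct-pathway striatal-like clusters (1113 ± 56.0 CPM), ahead of cluster 5 (756 ± 26.6 CPM).

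Metabotropic receptors differed among the striatal-like clusters. Grm4 and Grm8, receptors that lower transmitter release, were highest in the indirect-pathway striatal-like cluster 10, at 103 ± 7.53 and 527 ± 38.1 CPM, each apart from the next cluster. Grm3 was highest in cluster 25 (173 ± 25.7 CPM). Grm5, which couples to calcium release, reached 2610 ± 438 CPM in cluster 27, then 1663 ± 152 CPM in the septal-like cluster 13, and was lowest in cluster 23 (25.1 ± 3.39 CPM). Grm7 was highest in the inhibitory clusters 5 and 12 (1252 ± 75.1 and 1175 ± 144 CPM), which overlapped, and Grm2 did not exceed 4.00 CPM in any cluster.

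Auxiliary subunits had their highest levels in several clusters. Neto1 and Cacng3 were highest in cluster 0 (540 ± 51.4 and 99.8 ± 16.5 CPM), as were Gria1, Gria4 and Grik1. Neto2 was highest in clusters 27 and 22 (1151 ± 70.1 and 1113 ± 68.1 CPM), which overlapped. Shisa6 and Cnih3 were highest in cluster 20 (364 ± 10.6 and 134 ± 3.75 CPM; excitatory, led by Nr4a3 and Rasgrf1), and Shisa9 in cluster 27 (568 ± 97.7 CPM). Cacng2 was highest in cluster 0 (144 ± 15.0 CPM) and Cacng4 in cluster 25 (262 ± 49.7 CPM). The spread over clusters was smaller for Cacng7 (34.0 to 74.7 CPM), Cacng8 (19.5 to 52.3 CPM), Cnih2 (14.5 to 38.3 CPM) and Shisa7 (26.5 to 90.3 CPM), and Cacng5 did not exceed 4.94 CPM. These levels describe clusters built from the same nuclei and were not tested.

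**Figure D1:**
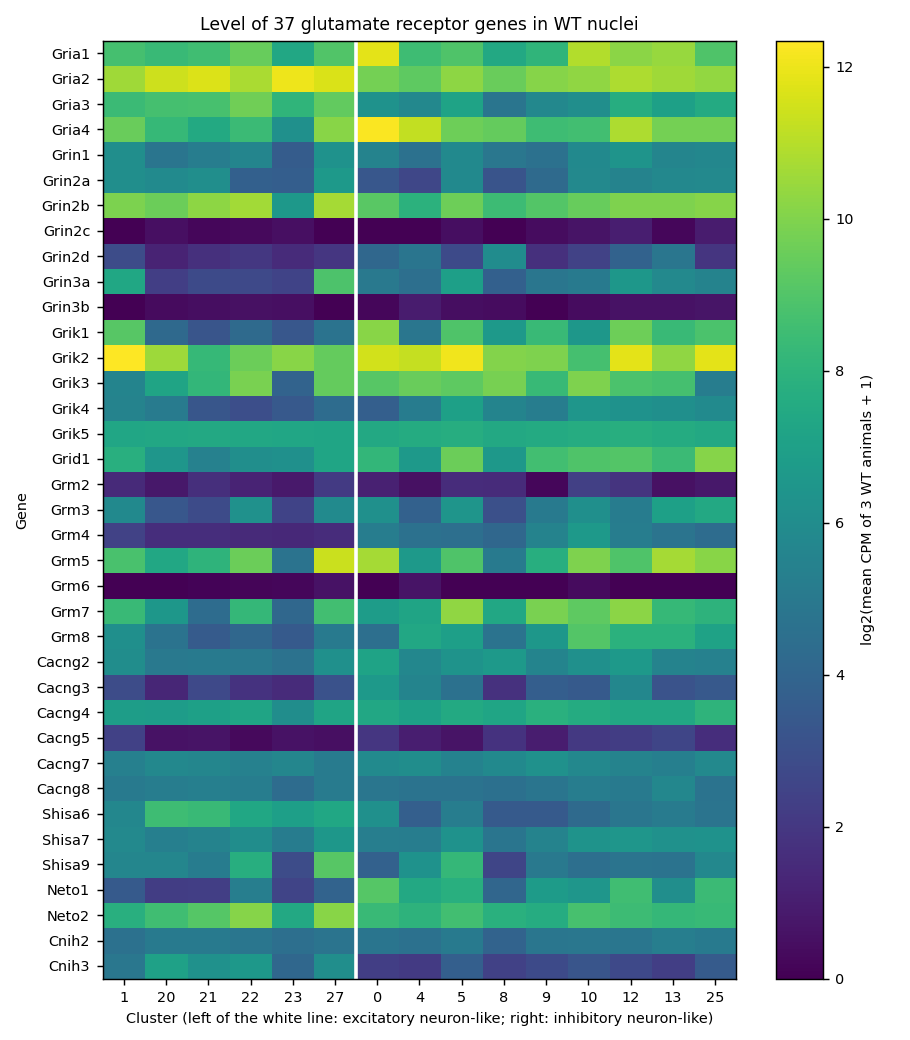
Mean level in WT animals of each of the 37 genes (rows) in the 6 excitatory and 9 inhibitory neuron-like clusters (columns), coloured by log2 of CPM plus 1. Gria2 is high across the excitatory clusters, Gria1 and Gria4 peak in cluster 0, and cluster 27 holds the highest Grin3a, Grm5 and Shisa9.

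In excitatory neuron-like nuclei, KO animals had less RNA of 3 receptor genes and more of 2 others. Grin1, Grin3a and Grm5 were lower, and Grm3 and Gria4 were higher. These 5 of the 34 members tested passed the test (edgeR's quasi-likelihood test, adjusted p below 0.05 and log2 change beyond 0.2), against 1.32% of all 18349 genes tested (0.812% higher and 0.512% lower). The median log2 change was -0.09 over the 34 members and -0.01 over all genes. DESeq2 called 7 members, these 5 with Cacng4 and Shisa9, against 2.91% of the genes to which it gave an adjusted p. Animals of one number varied together in KO and WT, and a fit blocked on the replicate number called 11 members (5 higher and 6 lower, these 5 among them), against 6.81% of genes. Without KO animal 2, 2 members passed. With no upper limits on UMIs and genes, Grin1, Grin3a and Grm5 kept their calls and Grm3 and Gria4 lost theirs. Run 1, with 3193 to 5626 nuclei per library against 11269 to 21669 in run 2, gave 0 calls alone, at log2 changes of -0.71 for Grin1, -0.80 for Grin3a, -0.92 for Grm5, 0.65 for Grm3 and 0.27 for Gria4. These are sums over all nuclei of the class, so the shares of its clusters enter them, and the changes within single clusters are given separately.

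Grin1 was at 34.0, 34.2 and 34.9 CPM in WT, at 30.6, 26.1 and 34.0 CPM in Het and at 18.5, 17.5 and 23.9 CPM in KO animals. All 3 KO values lay below all WT and Het values, and the WT values were within 1 CPM of each other. The log2 change KO against WT was -0.76 (SE 0.107, adjusted p = 0.0049). Grin3a, whose subunit lowers calcium entry through NMDA receptors, was at 41.1, 35.4 and 43.9 CPM in WT, 32.6, 22.2 and 39.7 CPM in Het and 22.5, 16.4 and 16.7 CPM in KO animals (log2 change -1.10, SE 0.171, adjusted p = 0.0090). The KO values again lay below those of WT, and Het animal 2 lay just below KO animal 1. The call of Grin1 held without each animal in turn (adjusted p up to 0.0384), and that of Grin3a was lost without KO animal 2 (adjusted p = 0.0588). The other NMDA subunits did not pass: Grin2b, at 827 to 898 CPM in WT and 747 to 805 CPM in KO animals, had a log2 change of -0.15 (adjusted p = 0.243) with no overlap between the groups.

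Grm5 was at 427, 334 and 374 CPM in WT, 301, 251 and 342 CPM in Het and 206, 163 and 222 CPM in KO animals. The KO values were all below the lowest Het value, and the log2 change against WT was -0.92 (SE 0.113, adjusted p = 0.0018), with the lowest adjusted p of the members. Grm3 moved the other way, with 26.0, 27 and 21.3 CPM in WT, 23.0, 23.9 and 28.4 CPM in Het and 36.8, 43.2 and 35.6 CPM in KO animals (log2 change 0.66, SE 0.117, adjusted p = 0.0146). KO values lay above all others, while WT and Het overlapped. The call of Grm5 held without each animal in turn (adjusted p up to 0.0142), and that of Grm3 was lost without WT animal 3 (adjusted p = 0.068) or KO animal 2 (adjusted p = 0.088). Grm8 had a log2 change of -0.22 (adjusted p = 0.725), with overlapping groups, which became 0.040 without WT animal 1.

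Gria4 was at 325, 283 and 285 CPM in WT, 327, 284 and 324 CPM in Het and 425, 364 and 348 CPM in KO animals. KO values lay above all others, but the result sat at the threshold (log2 change 0.37, SE 0.084, adjusted p = 0.0493). The call was lost without any 1 of the 8 animals other than KO animal 3 (adjusted p = 0.0203 to 0.189 over all 9 animals left out in turn) and in 14 of the 20 alternatives in all, with a positive log2 change throughout. Of the other AMPA subunits, Gria1 was at 352 to 388 CPM in WT and 398 to 466 CPM in KO animals (log2 change 0.22, adjusted p = 0.131). Gria3, which is on the X chromosome, was at 439 to 459 CPM in WT and 460 to 511 CPM in KO animals (log2 change 0.15, adjusted p = 0.309). Gria2 had a log2 change of -0.01 (SE 0.055).

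No auxiliary subunit passed edgeR's unblocked test, and their log2 changes had both signs. Shisa9 was at 96.4, 80.4 and 71.8 CPM in WT, 83.2, 73.3 and 74.2 CPM in Het and 68.4, 57.3 and 54.4 CPM in KO animals (log2 change -0.44, SE 0.107, adjusted p = 0.0645). Among TARPs, Cacng4 had a log2 change of -0.31 (adjusted p = 0.091), while Cacng8 and Cacng7 had changes of 0.26 and 0.22 (adjusted p = 0.217 and 0.376). Shisa7 (-0.19, adjusted p = 0.337) and the cornichon gene Cnih3 (0.17, adjusted p = 0.213) had smaller log2 changes. For all of these the KO and WT animals did not overlap, and Grik1 (-0.38, adjusted p = 0.655), which did overlap, was at -0.02 without WT animal 1. With the replicate block 5 auxiliary subunits passed, Shisa9, Cacng4 and Neto1 lower (adjusted p = 5.8e-05, 0.0028 and 0.0243) and Cacng8 and Cacng7 higher (adjusted p = 0.0257 and 0.0433), beside Gria1 (adjusted p = 0.0186). Neto1, with a log2 change of -0.43 without the block (adjusted p = 0.158), is named after its values were seen. DESeq2 called Shisa9 (adjusted p = 0.0093) and Cacng4 (adjusted p = 0.0435), and Shisa9 also passed without WT animal 3 or KO animal 1. In all, 16 of the 34 members tested had no overlap between KO and WT animals (7 higher and 9 lower), against 17.8% of all genes.

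**Figure D2:**
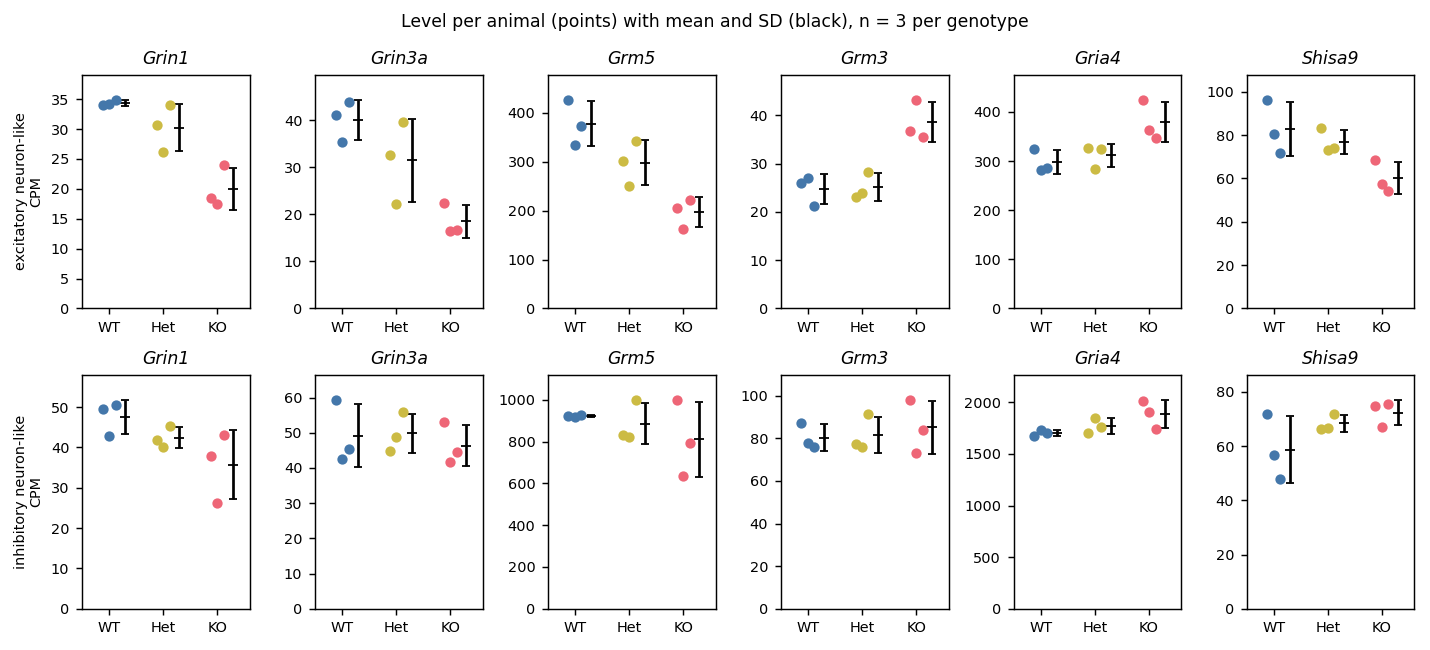
CPM of 6 members in each of the 9 animals (points) in excitatory (top) and inhibitory neuron-like nuclei (bottom), with the mean and SD of each genotype (black ticks and bars, n = 3). In the top row, for Grin1, Grin3a and Grm5 the 3 KO points sit below all WT points, and for Grm3 and Gria4 above them.

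Markers of other cell types were summed in the same nuclei. The radial glia list summed to 137 to 148 CPM in WT and 130 to 136 CPM in KO animals, below WT, and 3 of its 8 markers reached 10 CPM. The other marker lists overlapped between KO and WT animals. Microglia, endothelial and mural lists had no marker at 10 CPM (0 of 9, 0 of 7 and 0 of 8), and none of the markers passed the test. In inhibitory neuron-like nuclei the radial glia list also summed lower in KO animals, to 146 to 156 CPM against 156 to 169 CPM in WT, with 5 of its 8 markers at 10 CPM, and the other lists overlapped. The part of the radial glia differences in the results of either class, and in the difference between the classes, was not tested.

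The 5 genes were followed within the 6 excitatory clusters. Of 179 pairs of a member and a cluster tested, 13 passed (5 higher and 8 lower, in 6 members), against 1.01% of all pairs of a gene and a cluster. With the replicate block 31 pairs passed (17 higher and 14 lower), against 2.95% of all pairs. The log2 changes ranged over the clusters from -1.01 to -0.41 for Grin1, -1.07 to -0.09 for Grin3a, -1.09 to -0.45 for Grm5, 0.20 to 1.59 for Grm3 and 0.24 to 0.76 for Gria4. The genes were chosen by the sums of these same clusters, so a shared sign is partly built in and is no separate evidence. Grin3a, at 3.90 to 5.80 CPM in 4 of the clusters, was not called in any of those 4 (log2 change -0.09, SE 0.367, in cluster 22).

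The deep-layer excitatory-like cluster 22 held 4 of these calls. There Gria4 was at 342, 333 and 328 CPM in WT, 394, 416 and 368 CPM in Het and 599, 543 and 527 CPM in KO animals, a log2 change of 0.76 (SE 0.084, adjusted p = 0.00048). The 3 genotypes did not overlap, with Het between the others. Grin1 (-1.01, adjusted p = 0.0040), Grm5 (-0.65, adjusted p = 0.0059) and Grm3 (0.81, adjusted p = 0.0224) also passed in that cluster as log2 changes, and Grm3 lost its call without WT animal 1, 2 or 3 or KO animal 2 (adjusted p up to 0.140). In cluster 21, 3 members passed: Grin1 (-0.99, adjusted p = 0.0032), Grm5 (-1.09, adjusted p = 0.0015) and Gria4 (0.49, adjusted p = 0.0070). All 3 held without each animal in turn. The background was 1.29% of genes in cluster 22 and 2.82% in cluster 21.

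Cluster 27, the smallest of the class with 1336 nuclei, held 5 calls against a background of 2.48%. Grm3 was at 50.6, 86.5 and 42.8 CPM in WT and at 121, 256 and 169 CPM in KO animals (log2 change 1.59, SE 0.262, adjusted p = 0.0012). All KO values lay above all WT values, with the widest spread among KO animals. Grm5 fell from 2199, 2560 and 3070 CPM in WT to 1596, 1272 and 1705 CPM in KO animals (log2 change -0.75, adjusted p = 0.0022). Grin1 (-1.01, adjusted p = 0.0160), Grin3a (-0.81, adjusted p = 0.0305) and Gria1 (0.56, adjusted p = 0.0080) were the others. Each of these 3 lost its call without WT animal 2, Grin1 and Grin3a also without WT animal 3 or KO animal 3, and Gria1 and Grin3a without KO animal 2 (adjusted p up to 0.222). The cluster's share of all nuclei was 0.861% ± 0.190 in WT, 0.661% ± 0.0893 in Het and 0.547% ± 0.163 in KO animals (SD, n = 3), and it is the excitatory cluster in which Grin3a, Grm5 and Shisa9 are highest. The difference in share was not tested. Without that cluster, an alternative chosen after seeing the data, Grin1, Grin3a, Grm5, Grm3 and Gria4 all passed in the class, with log2 changes of -0.72, -0.89, -0.80, 0.59 and 0.45 (adjusted p = 0.0111, 0.0266, 0.0035, 0.0252 and 0.0331), and Shisa9 had a change of -0.44 (adjusted p = 0.0962).

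Grin3a was called in cluster 1 as well, at 160, 158 and 166 CPM in WT, 136, 99.1 and 159 CPM in Het and 86.6, 77.1 and 65.1 CPM in KO animals (log2 change -1.07, SE 0.156, adjusted p = 0.0427). The call held only without Het animal 2, Het animal 3 or KO animal 1 (adjusted p up to 0.306 without another). It was the only 1 of 11161 genes called in that cluster (0.00896%). Shisa9 was called in none of the 6 clusters, with log2 changes from -0.71 in cluster 1, where WT animal 1 was at 105 CPM and the other WT animals at 21.2 and 23.7 CPM, to 0.13 in cluster 27.

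Cluster 2, which was not named, shared some of this. Gria4 was at 338, 289 and 302 CPM in WT and 503, 415 and 392 CPM in KO animals (log2 change 0.53, adjusted p = 0.0134), and Gria3 at 237, 235 and 206 CPM in WT and 305, 316 and 292 CPM in KO animals (log2 change 0.46, adjusted p = 0.0215). Shisa6, which slows the desensitisation of AMPA receptors, was lower, at 99.0, 95.8 and 102 CPM in WT and 72.7, 55.5 and 65.5 CPM in KO animals (log2 change -0.58, adjusted p = 0.0118). These were 3 of 34 members tested, against 0.558% of genes. Without WT animal 3 all 3 calls were lost, without WT animal 1 or KO animal 2 those of Gria3 and Shisa6, without KO animal 1 that of Gria3 and without WT animal 2 that of Gria4 (adjusted p up to 0.162). Gria3 lies on the X chromosome, and WT animal 3, which has Xist, had its lowest value. WT animals 1 and 2, at 237 and 235 CPM, also lay below all KO animals. The part of sex was not tested beyond leaving out each animal.

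**Figure D3:**
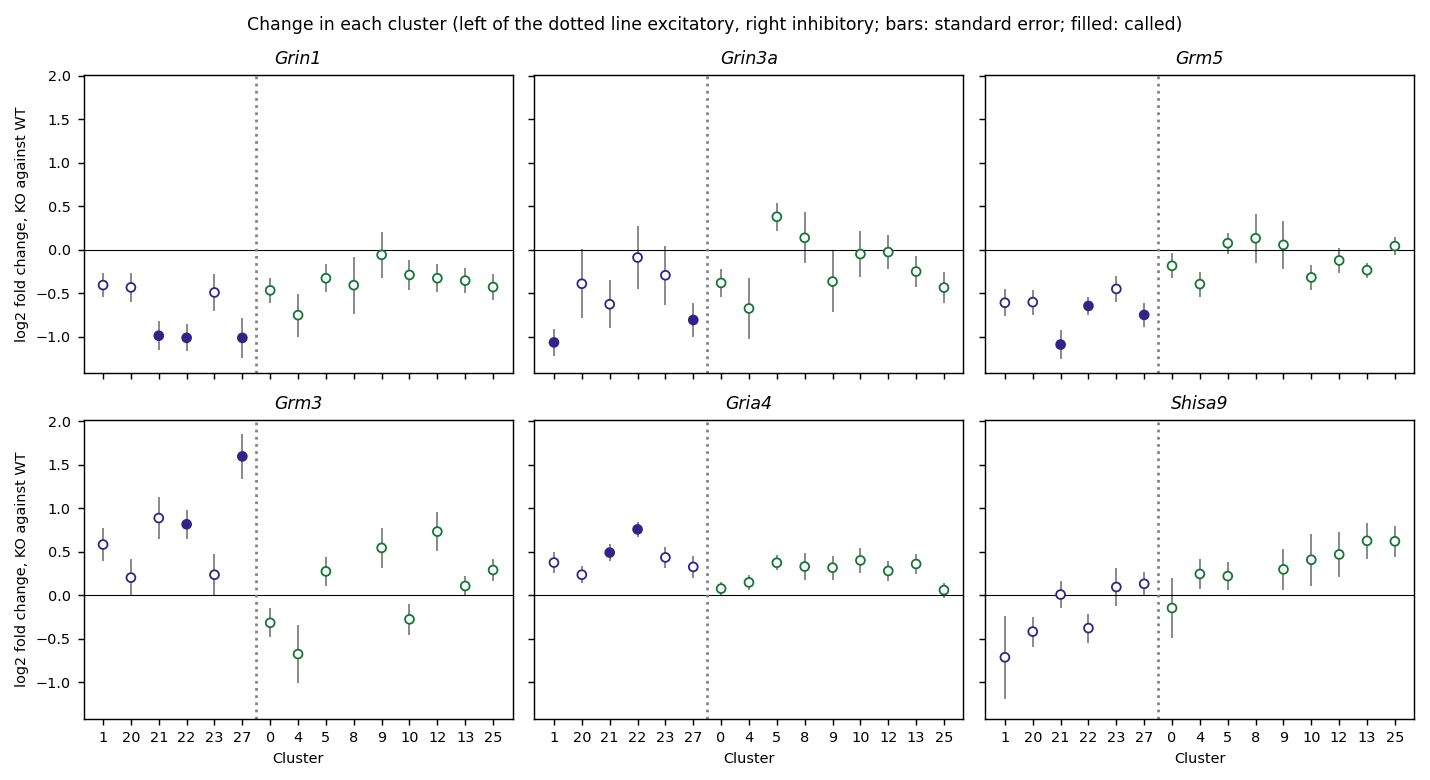
Log2 change KO against WT (points) with its standard error (bars) in each of the 6 excitatory (left of the dotted line) and 9 inhibitory neuron-like clusters, for 6 members. Filled points passed the test. Grin1 and Grm5 are below 0 and Gria4 and Grm3 above 0 in all 6 excitatory clusters, whereas Shisa9 lies on both sides.

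In inhibitory neuron-like nuclei, 0 of the 34 members tested passed in KO against WT by edgeR, against 0.0372% of 18808 genes. DESeq2 called 0 members. At an unadjusted p below 0.05 by edgeR there were 7 of the 34 members, against 1139 of the 18808 genes. The largest changes were of Cacng3, a TARP, at 30.3, 36.1 and 34.8 CPM in WT and 45.3, 41.3 and 45.7 CPM in KO animals (log2 change 0.41, SE 0.106, adjusted p = 0.474), and of Grin1, at 49.5, 42.8 and 50.5 CPM in WT and 38.0, 26.3 and 43.0 CPM in KO animals (log2 change -0.39, SE 0.131, adjusted p = 0.672). Cacng3 did not overlap between the groups and Grin1 did. Gria3 (0.34), Shisa9 (0.33), Grik4 (0.27) and Neto1 (-0.27) followed as log2 changes, with adjusted p from 0.648 to 0.797. Gria4 (0.18), Neto2 (0.09) and Grm4 (-0.14) had smaller log2 changes, with no overlap. In all, 5 members had no overlap, against 11.2% of genes. The samples of one number varied together in this class, and a fit blocked on that number called 3 members, against 0.813% of genes: Gria3 (log2 change 0.34, adjusted p = 0.0151), Cacng3 (0.41, adjusted p = 0.0374) and Grin1 (-0.40, adjusted p = 0.0387).

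Within the 9 inhibitory clusters, 1 of 280 pairs passed, against 0.0594% of all pairs and 0.324% of the genes of the cluster that held it. It was Gria3 in cluster 5, which was led by Gbx1 and Lhx8 and named medial ganglionic eminence interneuron-like on only 3 of 9 markers. Gria3 was at 149, 147 and 137 CPM in WT, 184, 162 and 190 CPM in Het and 194, 225 and 207 CPM in KO animals (log2 change 0.56, SE 0.099, adjusted p = 0.0248). The gene lies on the X chromosome, and WT animal 3, which has Xist, had the lowest value. WT animals 1 and 2, at 149 and 147 CPM, also lay below all KO animals. The part of sex was not tested beyond leaving out each animal. Without WT animal 2, WT animal 3 or KO animal 2 this call was lost (adjusted p up to 0.116), and a fit blocked on the replicate number called 9 pairs, against 0.367% of all pairs. Grin1 had a negative log2 change in 9 of 9 inhibitory clusters (-0.75 to -0.06) and Gria4 a positive one in 9 of 9 (0.06 to 0.40), none called, and these clusters make up the class sums. Grin3a and Grm5 had log2 changes of both signs there, from -0.68 in cluster 4 to 0.38 in cluster 5 for Grin3a (negative in 7 of 9) and from -0.40 in cluster 4 to 0.13 in cluster 8 for Grm5 (negative in 5 of 9), none called.

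The difference between the classes was tested itself, with both classes of each animal in one fit. It passed for 3 members of 34, against 0.0559% of 19685 genes. The KO change of Grin3a was 1.05 higher on the log2 scale in inhibitory than in excitatory neuron-like nuclei (SE 0.154, adjusted p = 0.0185), where it was -0.05 and -1.10. That of Grm5 was 0.73 higher (SE 0.105, adjusted p = 0.0185), at -0.16 and -0.92. That of Shisa9 was 0.79 higher (SE 0.090, adjusted p = 0.0059), at 0.33 and -0.44. For Grin1 the difference was 0.36 (SE 0.102, adjusted p = 0.354) and for Grm3 -0.56 (SE 0.130, adjusted p = 0.205), so their changes are not shown to differ between the classes. The difference for Grin3a was lost without WT animal 2 or 3 or KO animal 3 (adjusted p = 0.080, 0.102 and 0.109), and that for Grm5 without WT animal 1 or 3 (adjusted p = 0.0731 and 0.0876) or without cluster 27 (0.63, adjusted p = 0.0831). With no upper limits on UMIs and genes, only that of Shisa9 passed among the members (adjusted p = 0.0867 for Grin3a and 0.0778 for Grm5), and in run 1 alone 0 passed. The difference for Grin3a was also lost in run 2 alone.

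**Figure D4:**
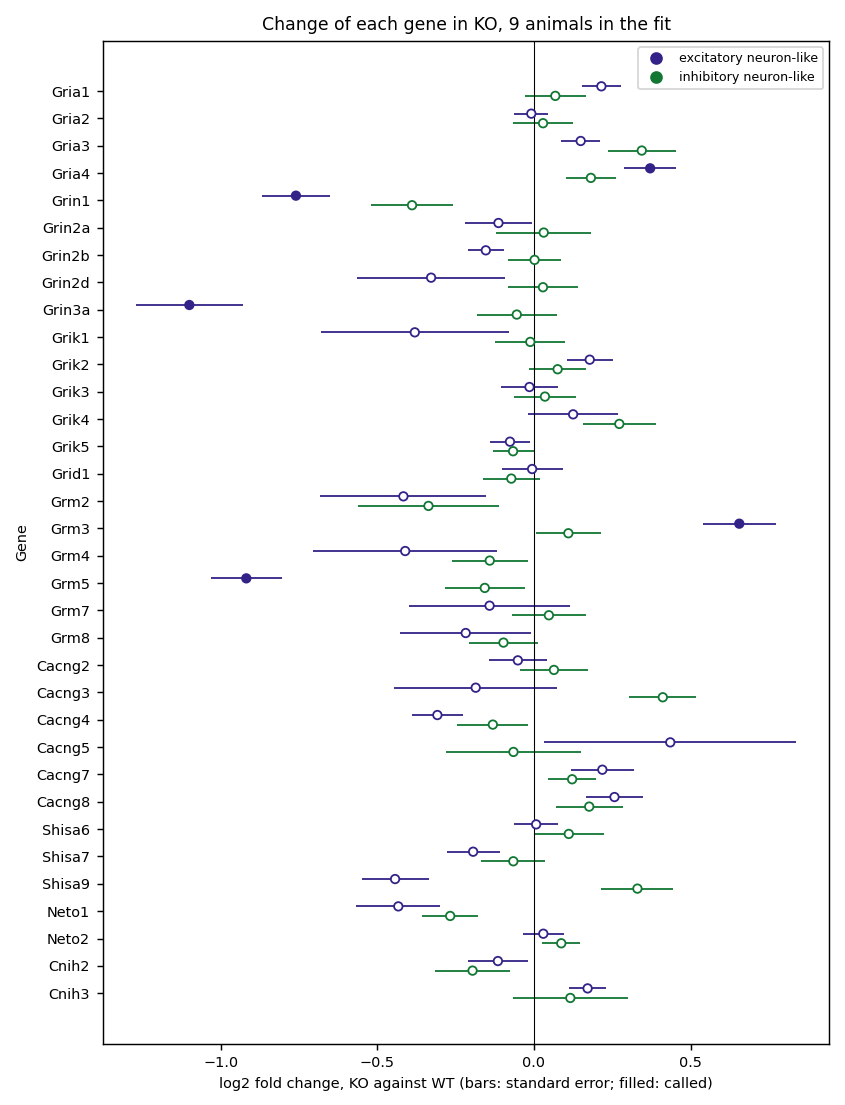
Log2 change KO against WT (points) with its standard error (whiskers) of the 34 members tested, for the excitatory and the inhibitory class. Grin3a and Grm5 lie at -1.10 and -0.92 in excitatory and at -0.05 and -0.16 in inhibitory neuron-like nuclei.

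Het animals gave 0 calls among the members in excitatory and inhibitory neuron-like nuclei by edgeR without the replicate block (0 of all genes in each, 0 members by DESeq2 in each). At an unadjusted p below 0.05 by edgeR there were 2 and 0 members, against 624 of 18349 and 363 of 18808 genes. In excitatory neuron-like nuclei the log2 changes Het against WT were -0.18 for Grin1, -0.34 for Grin3a, -0.33 for Grm5, 0.03 for Grm3 and 0.08 for Gria4, beside -0.76, -1.10, -0.92, 0.66 and 0.37 in KO animals. Both comparisons use the same WT animals. A test for any difference among the 3 genotypes passed for Grin1, Grin3a, Grm3 and Grm5 (adjusted p = 0.0156, 0.0309, 0.0309 and 0.0066), 4 members against 0.529% of genes. This count fell to 2 without WT animal 1, 2 or 3 or KO animal 1 and to 0 without KO animal 2. The same test passed for 0 members in inhibitory neuron-like nuclei (0.016% of genes). In excitatory neuron-like nuclei, the counts of the Het comparison and of this test were higher with the replicate block. They are given with the alternatives at the end, since the numbers were not taken as pairing Het with WT there.

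Outside these classes, members passed in Cajal-Retzius-like nuclei, the early neurons of the marginal zone, with 2 of 30 tested against 0.228% of genes. Grin2a was at 152, 168 and 126 CPM in WT, 178, 125 and 129 CPM in Het and 82.2, 75.2 and 75.6 CPM in KO animals (log2 change -0.93, SE 0.162, adjusted p = 0.0122). Grik1 was at 135, 103 and 102 CPM in WT, 96.4, 64.2 and 58.5 CPM in Het and 58.0, 56.4 and 62.2 CPM in KO animals (log2 change -0.93, SE 0.186, adjusted p = 0.0360). KO values lay below WT in both, on 33 to 140 UMIs per animal. Both calls were lost without WT animal 1, KO animal 2 or KO animal 3, and that of Grik1 also without WT animal 3 (adjusted p up to 0.239). Without KO animal 1, 5 members passed, and the 0.228% above is from the fit of all animals, not from that one. With the members among the clustering genes, the log2 changes were -0.15 and -0.29 and neither passed. In KO against WT, radial glia-like (34 members tested), intermediate progenitor-like (34), inhibitory progenitor-like (27) and microglia-like nuclei (2) gave 0 calls among members and 0 among all genes by edgeR, and 0 among members by DESeq2. At an unadjusted p below 0.05 there was, for KO against WT, 1 member in radial glia-like nuclei (against 429 of 16471 genes) and 0 in the others.

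Of 45 other genes of the glutamate synapse (transporters, scaffolds, organisers and signalling proteins), 44 were tested in excitatory neuron-like nuclei, and 2 were higher in KO animals and 0 lower by edgeR, against 0.812% and 0.512% of all genes. DESeq2 called 3, these 2 and Dlgap3 (log2 change -0.42, adjusted p = 0.0382; 0.0678 by edgeR), against 2.91% of genes, and the fit with the replicate block called 9 (4 higher and 5 lower), against 6.81% of genes. Dlg1, the scaffold SAP97, was at 441, 439 and 437 CPM in WT, 491, 490 and 481 CPM in Het and 583, 563 and 530 CPM in KO animals (log2 change 0.37, SE 0.061, adjusted p = 0.0116), without overlap among the 3 genotypes. Dlgap2, another postsynaptic scaffold, was at 95.2, 89.1 and 83.8 CPM in WT and 149, 123 and 111 CPM in KO animals (log2 change 0.53, SE 0.102, adjusted p = 0.0232). Dlg1 lost its call without WT animal 3 or KO animal 2 (adjusted p up to 0.0581), and Dlgap2 without WT animal 1, 2 or 3 or KO animal 1 or 2 (adjusted p up to 0.103). The 43 tested in inhibitory neuron-like nuclei gave 0 calls by edgeR and by DESeq2. By edgeR, 3 of them had an unadjusted p below 0.05, against 1139 of all 18808 genes. The block gave 3 calls (1 higher and 2 lower), against 0.813% of genes.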

How the data were processed

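Single-nucleus RNA was measured with a combinatorial barcoding kit in 9 forebrains, 2 runs each. The deposited matrices hold expected counts of UMIs per gene and nucleus, made by the authors with ScaleRna on mm10 after cell calling with CellFinder, and 6.70 to 8.71% of the stored values per library are not whole. Barcodes with 800 to 6000 UMIs, 300 to 3000 genes, at most 1% mitochondrial counts and log genes of at least 0.9 times log UMIs were kept, and the 5% with the highest Scrublet scores per library were removed as doublets. Clusters (scanpy 1.11.5, 3000 variable genes, 50 components, 20 neighbours, Leiden at resolution 1) were named from listed markers, which needed 3 detected markers, so differences from the study may come from rebuilt names. For each group of nuclei, the counts of an animal were added up over both runs, rounded to whole numbers, and tested with edgeR 4.0.16 (filterByExpr, TMM, quasi-likelihood F-test, genotype over 9 animals), with Benjamini-Hochberg adjustment over all genes tested. A call needs adjusted p below 0.05 and a log2 change beyond 0.2. The SE (standard error) of an edgeR log2 change was derived from its test, as the absolute change divided by the square root of F. The class comparison used the animal as a block. In single clusters a test needed 20 nuclei in every animal. A level of 3 UMIs over a class, the limit of detection of a count of 0, is 0.0209 CPM in excitatory and 0.0211 CPM in inhibitory neuron-like nuclei, which covers counting error only. Tested on simulated data, the excitatory comparison (18077 genes) recovered 43.3% of genes changed by 0.5 on the log2 scale and 81% of those changed by 1. The inhibitory one (18551 genes) recovered 40% and 89.7%, and there were 4 and 8 false calls. Simulated counts were drawn independently for each animal, with a spread set by expression level alone. They lack the shared variation of same-numbered animals, so these rates may differ from those in the real data.

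The members and lists were chosen with earlier results of these data known. Named are members called, then of those with at least 10 CPM the 6 with the largest change per class and those without overlap of KO and WT animals. All 37 gene IDs matched GENCODE vM21 with version. The pairing check took the correlation of same-numbered animals' deviations from their genotype means, which was 0.119 to 0.287 in inhibitory and 0.0914 to 0.268 in excitatory neuron-like nuclei. It passed 0.1 for 9 of 9 pairs in the first and 8 of 9 in the second, including 3 of 3 KO and WT pairs in each (0.132 to 0.263 in excitatory neuron-like nuclei), so blocked counts stand beside the KO results of both classes. The pairing comes from these correlations: per the study's methods E14 animals came from 3 litters, and the labels do not tie numbers to litters. The blocked fit held all 9 animals, the Het animals among them. The alternatives tried were DESeq2 1.42.0, RLE factors, no filter on low counts, fewer animals, a replicate block, single runs, other limits on nuclei, other clusters, cluster 27 left out (chosen after seeing the data) and each animal left out in turn.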

Additional observations from a re-analysis of the deposited data

Results flagged for a closer look

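For 3 members the KO change differed between excitatory and inhibitory neuron-like nuclei, and it is this difference that was tested, with both classes of each animal in one edgeR fit. For Grin3a it was 1.05 on the log2 scale, for Grm5 0.73 and for Shisa9 0.79, each as inhibitory minus excitatory. The changes in the 2 classes were -0.05 and -1.10 for Grin3a and -0.16 and -0.92 for Grm5, and single inhibitory clusters went both ways, from -0.68 to 0.38 for Grin3a and from -0.40 to 0.13 for Grm5, with no call. Shisa9 had changes of opposite sign (0.33 and -0.44) that passed in neither class alone by edgeR without the replicate block. Its log2 changes in 6 excitatory clusters ran from -0.71 to 0.13, positive in 3 and negative in 3, with no call. In 8 inhibitory clusters they ran from -0.15 to 0.62, positive in 7, with no call. The difference for Shisa9 kept its call without each animal in turn (adjusted p up to 0.0491) and without cluster 27 (0.81). Without that cluster, the difference for Grin3a kept its call (0.85) and that for Grm5 did not. With no upper limits on UMIs and genes only the difference for Shisa9 passed among the 3, and in run 1 alone 0 did. The difference for Grin3a was also lost in run 2 alone. Cluster 27, where all 3 genes have their highest excitatory level, made up a smaller mean share of nuclei in KO than in WT animals. The part of that share in the differences was not tested beyond the fits without the cluster.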

How the results depend on the processing

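Over 30 results for single members, 510 of 577 alternatives kept direction and call, 46 lost the call, 19 gained one and 2 turned the sign (Grm8 in excitatory neuron-like nuclei, at 0.039 with the members among the variable genes and at -0.40 to 0.040 without 1 animal, the sign turning without WT animal 1). The 5 members called in excitatory neuron-like nuclei became 8 with no filter on low counts, 11 with the replicate block (the 5 among them), 0 in run 1 alone, 3 with no upper limits on UMIs and genes, and 2 to 6 without 1 animal. The numbers were taken as pairing KO with WT in both classes. They were not taken as pairing Het with WT in excitatory neuron-like nuclei, where 1 of 3 correlations was below 0.1. Every animal still correlated best with its own number, a hint from the data and not from the design. The blocked fit held all 9 animals, so its KO counts also use the numbers of the Het animals. DESeq2 called 7 members in excitatory neuron-like nuclei. In inhibitory neuron-like nuclei the 0 became 3 with no filter and 3 with the block, and stayed 0 without each animal. Het against WT in excitatory neuron-like nuclei went from 0 to 1 with no filter and to 1 with the block. Any genotype difference went from 4 to 8 with no filter, 9 with the block, 0 in run 1, 2 with no upper limits and 0 to 4 without 1 animal. Other classes went from 2 to 1 with DESeq2 (where Grik1 has no adjusted p), 5 with no filter, 0 in run 1, 1 in run 2, 1 without doublet removal and 0 to 5 without 1 animal. Excitatory pairs of member and cluster went from 13 to 25 with no filter, 31 with the block, 3 in run 1 and 9 to 15 without 1 animal, and inhibitory pairs from 1 to 5 with DESeq2, 10 with no filter, 9 with the block, 4 with no upper limits and 0 to 3 without 1 animal. Differences between classes went from 3 to 6 with no filter, 0 in run 1, 1 with no upper limits and 1 to 4 without 1 animal. The other synapse genes went from 2 to 6 with no filter, 12 with the block, 0 in run 1 and 0 to 2 without 1 animal. The other counts kept within 1.5 times under the block. The share of all genes called moves between fits as well. For KO against WT in excitatory neuron-like nuclei it was 1.32% in the main fit and 6.81% with the block. Shares with no filter, in single runs, under other limits and without 1 animal are not given. Those counts are therefore not read as particular to the members. Where a count moved, the cause was not tested. Single runs and fits without 1 animal hold fewer nuclei or samples, and the part of that was not tested either.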
